A study of Mus musculus with 28 samples.

Results

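Tuba1a, Tubb3, Map1b, Map2, Mapt, Dcx, Stmn1, Stmn2, Stmn3 and Stmn4 encode 2 tubulins, 3 structural microtubule-associated proteins, doublecortin and 4 stathmins. These 10 genes were taken by name, and all of them were found in both count tables from 28 single mouse cells, an exonic one of 23453 genes and an intronic one of 20422. The sample labels name 8 astrocytes and 12 neurons of genotype C57/BL6 from primary culture of the cortex, collected by pipette, and 8 interneurons of genotype C57/BL6/N from acute slices of the prefrontal cortex, collected by patch-clamp pipette. No drug, transgene or other treatment is named for any group. The labels' protocol for the cultured cells describes a perfused, fixed brain of a 3-month-old male whose sections were stained for MAP2, whereas the study's methods describe dispersed embryonic cultures. No animal or culture is named for any cell, so the cells cannot be counted as independent animals. Cultured cells and interneurons also differed in library kit and sequencer.

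Microtubules are hollow polymers of alpha- and beta-tubulin dimers that carry transport along axons and dendrites. Structural microtubule-associated proteins bind along the polymer and stabilise it, with MAP2 known mainly from dendrites and cell bodies and tau, the product of Mapt, mainly from axons. Stathmins bind free tubulin dimers and promote disassembly, and doublecortin stabilises microtubules in migrating, immature neurons. Neurons are known for high levels of most of these proteins, and class III beta-tubulin (Tubb3), MAP2 and doublecortin are widely used to mark them. Astrocytes also build microtubules and use many of the same tubulin genes.

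The 28 columns carry codes that match no sample label. They were therefore described by their code runs, and no column was assigned a cell type. The lower BRP run holds 12 columns (BRP528, BRP529 and BRP534 to BRP543), the upper BRP run 8 (BRP564 and BRP566 to BRP572) and the F run 8 (F1, F2, F6, F7, F11, F12, F16 and F24). The run sizes equal those of the labelled neurons, astrocytes and interneurons, but the files do not tie a run to a label, and the runs were proposed with marker levels known. Differences in neuronal genes between the runs are therefore descriptions, and no test was made. Levels are exonic counts per 1000000 exonic counts of the column (CPM). Among 9 neuron markers, 7 lay higher in every column of the lower BRP run than in any column of the upper one, and among 10 astrocyte markers 5 lay the other way, beside 3.21% and 4.04% of the 12774 genes with a mean of at least 1 CPM. The astrocyte glutamate transporter gene Slc1a2 overlapped, with medians of 804 CPM in the lower and 192 in the upper run. The neuron markers summed to 3660 to 8430 CPM in the lower BRP run, 57.8 to 292 in the upper and 735 to 15379 in the F run, and the astrocyte markers to 213 to 2463, 2760 to 7237 and 1.19 to 4363. Snap25, a synaptic membrane protein, was at 0 in 6 of the 8 upper columns and in none of the others. The astrocyte water channel gene Aqp4 was at 0 in 0 of the 8 upper, 2 of the 12 lower and 7 of the 8 F columns. GABAergic markers summed to 0.538 to 3104 CPM in the lower BRP run, where BRP528 was the highest, 1.62 to 186 in the upper and 479 to 11886 in the F run. Oligodendrocyte markers summed to 0.517 to 1013 CPM in the lower BRP run, 550 to 1308 in the upper and 0 to 3387 in the F run. Of these, Olig1 measured 432 to 1048 CPM in the upper run. Totals were 17483754 to 26770944 exonic counts per column in the lower BRP run, 12969692 to 19798892 in the upper and 838343 to 14831505 in the F run. Depth cannot be told apart from the F codes. The labels give kit and sequencer by labelled cell only, so those of a run are not known and may differ between runs.

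The 10 genes differ in how well a read can be placed. Of the 50-base windows in the exons of Tuba1a, 72.9% occur in other genes, mainly Tuba1b and Tuba1c. Windows shared with other genes made up 18.9% for Stmn1 and 0% for Tubb3, Map1b, Map2, Mapt, Stmn3 and Stmn4. The coding sequences of Tuba1a and Tuba1b, both 1353 bases, are 98.3% identical. How the authors' counting split such reads is not given in the sources used here, so levels of Tuba1a are uncertain with respect to Tuba1b and Tuba1c.

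RefSeq promoter windows on GRCm38.p6 were found for 6 of the 10 genes, and none for Mapt, Stmn1, Stmn2 and Stmn4. The 250 bases before the annotated start are printed for Stmn3 and Map1b, which were both higher in every column of one BRP run than in any of the other and whose windows lie outside the GENCODE gene bodies. Capitals mark matches on either strand to any of 3 motifs. The TATA box was searched as TATAAA. The CCAAT box was searched by the letters of its name. The GC box bound by Sp1 was searched as GGGCGG. The Stmn3 window lies at chr2:181314501-181314750 on the minus strand and the Map1b window at chr13:99516603-99516852 on the minus strand.
Stmn3: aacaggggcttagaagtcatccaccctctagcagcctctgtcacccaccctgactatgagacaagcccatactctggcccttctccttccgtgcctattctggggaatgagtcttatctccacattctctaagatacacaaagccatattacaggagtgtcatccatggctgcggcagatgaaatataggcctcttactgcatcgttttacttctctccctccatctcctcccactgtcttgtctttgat
Map1b: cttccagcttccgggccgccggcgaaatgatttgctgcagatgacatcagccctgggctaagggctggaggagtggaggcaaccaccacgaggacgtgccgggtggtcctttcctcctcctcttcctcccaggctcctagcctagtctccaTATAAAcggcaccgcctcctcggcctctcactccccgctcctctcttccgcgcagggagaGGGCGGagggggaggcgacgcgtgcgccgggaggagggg
The Stmn3 window held none of the 3 motifs, and that of Map1b held 1 TATA box and 1 GC box. Over 32851 windows of the same length, 12.4% held the TATA box, 33.8% the CCAAT box and 32.7% the GC box. GC content was 48.8% in the Stmn3 window and 66.4% in that of Map1b. A match is a description of the letters and does not show a bound site.

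Together the 10 genes made up 0.497% to 1.73% of exonic counts in the lower BRP run (median 1.18%), 0.575% to 0.914% in the upper (median 0.822%) and 0.323% to 2.19% in the F run (median 0.417%). That order depends on the scaling. By column totals the medians were 11790 CPM in the lower, 8220.3 in the upper and 4166 in the F run. With DESeq2 size factors, whose values compare only between runs, they were 7786, 4087 and 16522, which put the F run highest in place of lowest. Tuba1a had the highest median of the 10 in each run. Without it, the other 9 genes summed to 3085 to 8313 CPM in the lower BRP run (median 6130), 638 to 1449 in the upper (median 859) and 482 to 10192 in the F run (median 2105). The sum without Tuba1a thus separated all columns of the BRP runs, while the sum with it did not. Of the 10 genes, 5 lay higher in every lower column than in any upper column: Map1b, Mapt, Stmn2, Stmn3 and Stmn4. The background for this was 3.21% of the 12774 genes with a mean of at least 1 CPM. No member lay higher in every upper column than in any lower one, for which the background was 4.04%. Of the lower and upper runs against the F run, 0 of the 10 genes separated in either, beside backgrounds of 11% and 24.8%. The median log2 ratio of the lower to the upper run, on CPM plus 1, was 2.46 over the 10 genes and -0.25 over all 12774, with 8 of 10 and 38.0% of genes higher in the lower run.

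**Figure D1:**
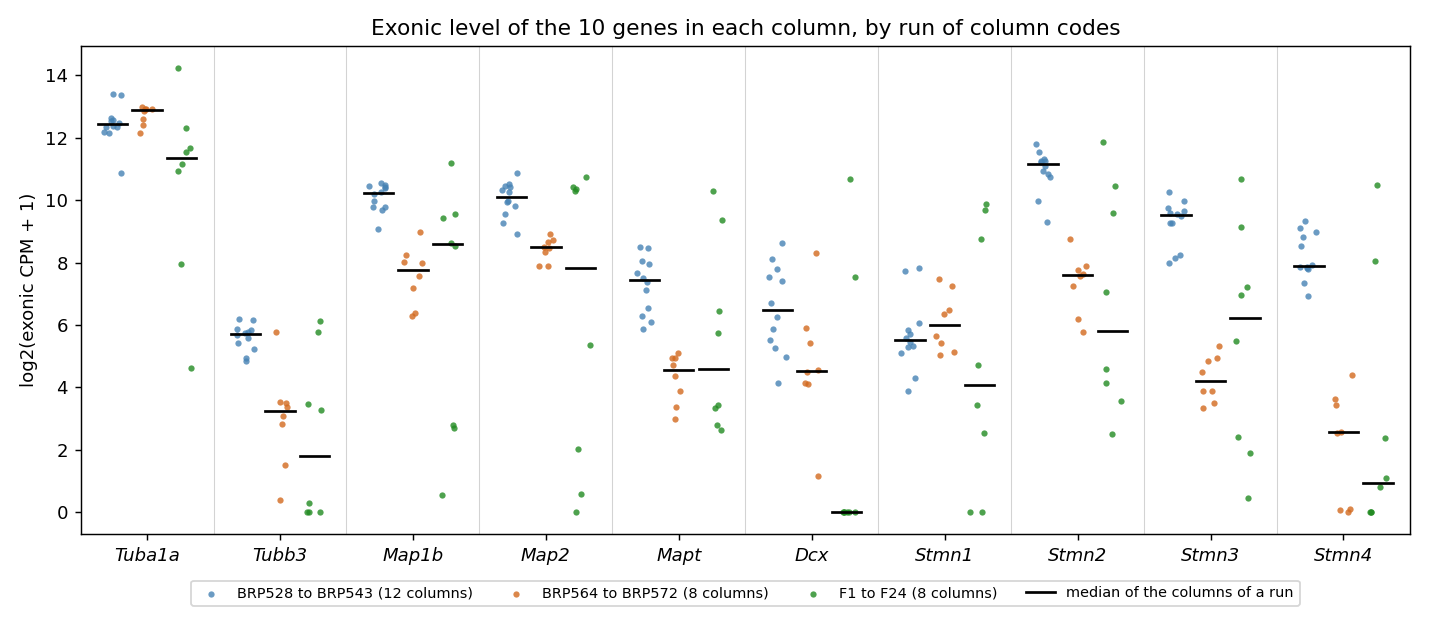
Exonic level of each gene in each of the 28 columns, as log2(exonic CPM + 1), with 1 point per column, colours for the 3 code runs and black bars for the run medians. Map1b, Mapt, Stmn2, Stmn3 and Stmn4 show no overlap between the BRP runs, Tuba1a and Stmn1 overlap widely, and points of the F run spread over most of the axis.

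Levels per kb of exon adjust for the union of a gene's annotated exons, not for the transcripts in use or for uneven coverage along them. Ordered by median exonic level per kb, the lower BRP run gave Tuba1a (3051 CPM per kb), Stmn3 (651), Stmn2 (411), Stmn4 (123), Map1b (75.9), Map2 (67.2), Tubb3 (27.3), Stmn1 (23.4), Mapt (23.1) and Dcx (7.12). Neighbours in this order overlapped in their ranges per kb, Tuba1a (1048 to 6046) and Stmn3 (224 to 1075) only at their ends. The upper BRP run began with Tuba1a (4177), Stmn2 (34.6), Stmn1 (33.9), Map2 (21.7) and Stmn3 (15.5). There Tuba1a stood clear of every other member, its lowest column at 2506 per kb against 90.8 for the highest column of Stmn1. Stmn3 held rank 2 in the lower run and rank 5 in the upper, and Stmn1 rank 8 and rank 3.

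Tuba1a, at chr15:98949837-98953703 (GRCm38, minus strand), encodes an alpha-tubulin that is abundant in developing neurons. It measured 1889, 5501 and 10901 CPM (lowest, median, highest) in the lower BRP run, 4518, 7531 and 8037 in the upper and 23.7, 2628 and 19223 in the F run. It was among the most abundant of all genes in both BRP runs, at rank 1 in BRP528 and BRP529, rank 36 in BRP535 and rank 2 to 10 in the upper run. Only BRP528 (10901) and BRP529 (10479) lay above all upper columns, and the lower median was 0.731 times the upper. That direction depends on scaling, since DESeq2 size factors put the lower median slightly above the upper, with a log2 ratio of 0.021 in place of -0.45. Relative to the median of all genes the log2 difference of Tuba1a was -0.20 by column totals, -0.10 with TMM factors and 0.040 with DESeq2 size factors. The F columns ranged from 23.7 in F7 and 249 in F6 to 19223 in F24, and F24 lay above every BRP column.

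Tubb3, at chr8:123411424-123422015 (GRCm38, plus strand), encodes class III beta-tubulin. Its exonic level was low for a gene so widely used as a marker, at 27.4, 51.0 and 72.1 CPM in the lower BRP run, 0.303, 8.40 and 53.4 in the upper, and 0, 4.45 and 69.1 in the F run. The lower median was 6.08 times the upper. Of the upper columns, 7 lay below all lower columns and BRP568 (53.4) lay inside their range. Tubb3 had no exonic count in F12, F16 and F24, where 0 allows up to 1.11, 3.58 and 1.42 CPM, so in these 3 columns a level like the lowest of the lower run would have been seen. F6 (54.2) and F7 (69.1) reached the level of the lower BRP run. In F7 the 601 exonic counts of Tubb3 stood beside 2342 intronic ones, 79.6% of the gene's counts there. Limits for a count of 0 and all intervals given here cover counting error only, because amplified reads are not independent molecules.

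Tuba1a was the main alpha-tubulin in the BRP columns and, by the median, in the F run. It held a median of 77.1% of the exonic counts of 8 alpha-tubulin genes in the lower BRP run, 75.5% in the upper and 94.8% in the F run, and per kb of exon 80.2%, 76.6% and 95.0%. F6 and F7 differed, with 8.10% and 41.8% per kb, and in F6 Tuba1b held 77.9%. Tuba1b, a closely similar alpha-tubulin, held per kb 17.6% in the lower run and 22.0% in the upper, subject to the shared sequence described above. Tuba4a, another alpha-tubulin, measured 116 to 699 CPM in the lower run and 0.386 to 62.0 in the upper, without overlap. Tuba1c was reversed, at 0.0572 to 1.56 in the lower and 75.2 to 381 in the upper. Tubb3 held only 0.763% of beta-tubulin counts in the lower run, 0.0881% in the upper and 0.311% in the F run, as run medians. Tubb2a was the main beta-tubulin, at 68.3% per kb in the lower run and 63.6% in the upper. Tubb2b, its near copy, held 3.12% and 14.0%. Of their 50-base windows, 49.6% for Tubb2a and 36.9% for Tubb2b occur in other genes, each other included, so the split between them is uncertain. In F7 Tubb2b held 91.1% per kb, and in F24 Tubb5 held 100% of 693 counts. Tubb5 held 11.3% and 9.46%, and Tubb4b 14.3% and 9.94%. Tubb6 lay without overlap at 0 to 27.3 CPM in the lower run and 34.7 to 157 in the upper.

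Map1b, at chr13:99421446-99516540 (GRCm38, minus strand), encodes a microtubule-associated protein of growing axons. It measured 540, 1203 and 1502 CPM in the lower BRP run, 76.7, 220 and 499 in the upper and 0.473, 382 and 2320 in the F run. All 12 lower columns lay above all 8 upper ones, with a ratio of medians of 5.47, although the gap between BRP535 (540) and BRP569 (499) was small. F1 stood above every other column (2320), and F24 (1 exonic count), F6 (5.48) and F16 (5.96) were the lowest.

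Map2, at chr1:66175273-66442583 (GRCm38, plus strand), was present in every BRP column. It measured 478, 1106 and 1869 CPM in the lower run, 236, 358 and 484 in the upper and 0, 646 and 1706 in the F run. The BRP runs met only at BRP528 (478) and BRP568 (484), so 11 of 12 lower columns lay above all upper ones, and the ratio of medians was 3.09. Map2 was thus less different between these runs than Map1b, Mapt or any of Stmn2 to Stmn4, by ratio of medians. In the F columns it was split, with 1252 to 1706 in F1, F7, F16 and F24 and 0 to 39.9 in F2, F6, F11 and F12. F12 had no exonic Map2 count, which allows up to 1.11 CPM.

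Mapt, at chr11:104231390-104332090 (GRCm38, plus strand), encodes tau. It measured 57.9, 174 and 359 CPM in the lower BRP run, 6.87, 22.5 and 33.4 in the upper and 5.17, 31.1 and 1261 in the F run. There was no overlap between the BRP runs, and the ratio of medians was 7.74. F24 (1261) and F1 (651) lay above all BRP columns, and 5 of the 8 F columns lay below all lower columns. Within the lower run Mapt and Map2 did not go together, with a Spearman rho of -0.53 over 12 columns, and BRP528 held the highest Mapt and the lowest Map2 of that run.

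Among the 12 structural microtubule-associated genes listed, 5 lay higher in all lower than in all upper columns (Map1a, Map1b, Mapt, Map7d2 and Map9) and none the other way, beside 3.21% and 4.04% of all genes. Map1a, a relative of Map1b from mature neurons, measured 50.3 to 180 CPM in the lower run and 5.41 to 36.5 in the upper. Map7d2, a member of the MAP7 family, measured 187 to 742 and 0 to 85.4, and Map9 191 to 668 and 11.9 to 110. Map4, the broadly expressed member, was at 208 to 474 and 226 to 575 and overlapped. By share of the list per kb, Map4 had a median of 4.48% in the lower run and 24.2% in the upper.

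Dcx, at chrX:143855842-143933311 (GRCm38, minus strand), encodes doublecortin. It measured 16.4, 90.0 and 390 CPM in the lower BRP run, 1.25, 22.1 and 313 in the upper and 0, 0 and 1633 in the F run. The lower median was 4.07 times the upper, but only BRP539 (390) lay above all upper columns and the ranges overlapped, again through BRP568 (313). Without BRP568 the highest upper column was 58.4. Exonic counts were found in 2 of the 8 F columns, F7 (1633) and F2 (185). The related kinase gene Dclk1, which shares the doublecortin domain, was more abundant, at a median of 80.0% of the doublecortin family per kb in the lower run, 65.7% in the upper and 93.2% in the F run, against 10.01%, 7.19% and 0% for Dcx. The F median is loose, since Dclk1 ranged from 25.6% to 100% and the family had only 3 counts in F11 and 2 in F12. Dclk2, another kinase of the family, held 0.258%, 2.97% and 1.61%.

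BRP568 stood apart from the rest of the upper run. It held the highest Tubb3 (53.4), Dcx (313), Map2 (484) and Stmn4 (19.8) of its run, while its Mapt (25.4), Map1b (144) and Stmn3 (21.4) lay inside the range of the other upper columns. Its summed neuron markers were 292 and its summed GABAergic markers 186 CPM, each the highest of the upper run, and its astrocyte markers summed to 6633. Gap43 alone made up 270 of the neuron sum, and Pvalb alone 182 of the GABAergic sum. The part of these markers in the levels of Tubb3 and Dcx was not tested. Without BRP568 the number of genes without overlap was 7 in place of 5, with Tubb3 and Map2 added. Without BRP528 it was 6, with Map2 added. The share over all genes was not computed without these columns.

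Stmn1, at chr4:134468320-134473843 (GRCm38, plus strand), encodes the founding stathmin, known from dividing and immature cells. It measured 13.9, 45.0 and 227 CPM in the lower BRP run, 32.0, 65.2 and 175 in the upper and 0, 17.7 and 939 in the F run. The lower median was 0.689 times the upper, and the ranges overlapped widely. Cycling markers summed to 0.0374 to 340 CPM in the lower run, 29.9 to 548 in the upper and 0 to 0.0674 in the F run, and their part in the Stmn1 level was not tested. F1 (939), F6 (825) and F2 (433) had more Stmn1 than any BRP column.

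Stmn2, at chr3:8509360-8561606 (GRCm38, plus strand), encodes a membrane-bound stathmin of growth cones and axons. It measured 622, 2301 and 3588 CPM in the lower BRP run, 53.8, 194 and 433 in the upper and 4.73, 76.8 and 3736 in the F run. The BRP runs did not overlap and the ratio of medians was 11.9. BRP541 was the lowest lower column (622) and yet had 1002 CPM of Stmn3, among the highest. F1 (3736) lay above every BRP column. F11 (22.8), F16 (16.7), F12 (10.7) and F24 (10 counts, 4.73 CPM) lay below every one.

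Stmn3, at chr2:181306459-181314500 (GRCm38, minus strand), and Stmn4, at chr14:66344296-66361680 (GRCm38, plus strand), encode further neuronal stathmins. Stmn3 measured 254, 739 and 1221 CPM in the lower BRP run, 9.12, 17.6 and 39.1 in the upper and 0.369, 83.0 and 1633 in the F run. Its ratio of lower to upper medians was 42.0, and the lowest lower column (BRP535) was well above the highest upper one (BRP567). Stmn4 measured 121, 236 and 648 in the lower run, 0, 4.89 and 19.8 in the upper and 0, 0.939 and 1443 in the F run. Its ratio of medians, 48.2, was the largest of the 10 genes, and rests on 853 exonic counts in all over the 8 upper columns. BRP569 had no Stmn4 count, which allows up to 0.231 CPM, and BRP564 and BRP570 had 1 count each.

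The stathmin family was built differently in the BRP runs. Of the summed stathmin level per kb of exon, Stmn1 held a median of 2.02% in the lower run and 42.5% in the upper, Stmn2 33.9% and 34.1%, Stmn3 46.0% and 17.6%, and Stmn4 16.3% and 3.22%. Stmn1 held at most 13.8% in any lower column and at least 25.6% in every upper column, so its share separated the runs although its level did not. Stmn3 held 30.7% to 68.9% in the lower run and 12.6% to 29.6% in the upper, also without overlap. By plain counts the Stmn1 medians were 1.55% and 27.6%, those of Stmn2 68.5% and 62.8%, of Stmn3 19.1% and 6.36%, and of Stmn4 9.80% and 1.78%. The leading stathmin of the BRP runs thus depends on the measure. Stmn2 led both by plain counts, whereas per kb Stmn3 led the lower run and Stmn1 the upper. In the F run the medians per kb were 26.2%, 21.1%, 28.9% and 2.75% for Stmn1 to Stmn4, and by plain counts 22.0%, 44.5%, 14.0% and 1.86%, so the leading stathmin depends on the measure. They also rest on single columns, since leaving out 1 column gave 26.5% to 62.5% for Stmn2 and 0.602% to 3.12% for Stmn4 by plain counts.

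**Figure D2:**
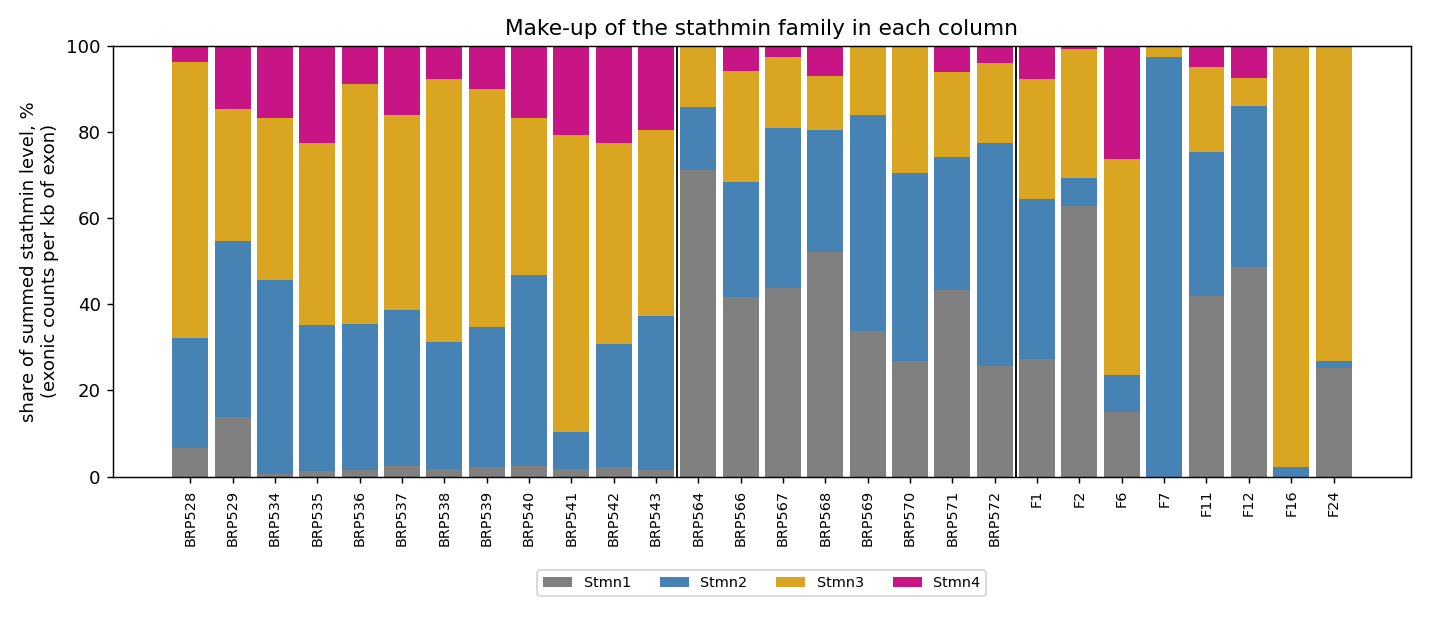
Share of each stathmin in the summed stathmin level of a column (exonic counts per kb of exon, in percent), 1 bar per column, with black lines between the code runs. Stmn1 holds at most 13.8% of any lower BRP column and at least 25.6% of every upper one, and F7, F16 and F24 are each made up mostly of 1 stathmin.

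The F columns differed among themselves in which of the 10 genes they held. F1, the deepest (14831505 exonic counts), held all stathmins (939, 3736, 565 and 265 CPM for Stmn1 to Stmn4) with high Map1b (2320), Map2 (1706) and Mapt (651), but no Dcx and only 9.98 of Tubb3. F6 held Stmn2 (1407), Stmn3 (1633) and Stmn4 (1443) within or above the range of the lower BRP run, beside 0.498 of Map2 and 5.48 of Map1b. F7 held Dcx (1633), Map2 (1252) and Stmn2 (774), with 0 counts of Stmn1 and Stmn4 and the lowest Tuba1a of all columns. Its astrocyte markers summed to 4363 and its oligodendrocyte markers to 3387 CPM, each the highest of the F run, beside 1112 of neuron markers. Slc1a2 alone made up 4350 of the astrocyte sum, and Olig1 alone 3210 of the oligodendrocyte sum. The part of these markers in the levels of F7 was not tested. F24 held Tuba1a (19223), Map2 (1379) and Mapt (1261), with at most 43.9 of any stathmin. F11 and F12 held mainly Tuba1a (3226 and 2976) and Map1b (396 and 684). F16, the shallowest column, held Tuba1a (2281) and Map2 (1318) and, of the stathmins, chiefly Stmn3 (149).

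The order of the F columns by neuron markers was not their order by the 10 genes. F16 and F12 had neuron marker sums of 15379 and 12241 CPM, above every BRP column, and lacked exonic Tubb3 and Dcx. Of the sum in F16, Snap25 alone made up 15297, and the microglial gene Csf1r stood at 2093 in the same column. F24 had the lowest sum of the run (735) and the highest Tuba1a, Mapt and second highest Map2. Exonic genes detected per column were 2338 to 7218 in the F run and 9869 to 12815 in the BRP runs. When the BRP columns were thinned to 838343 counts, the total of F16, Dcx in the upper run (from 8 to 7 columns) and Stmn4 in the upper run (from 7 to 5) lost columns, and the other genes were still found in as many as before.

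Intronic counts come from unspliced RNA, from retained introns or from other sequence inside an intron, and the tables do not separate these. Over all genes with at least 1000 counts, the median intronic share of a gene, pooled over a run, was 9.75% in the lower BRP run, 3.62% in the upper and 3.74% in the F run. Map2, whose introns span 251 kb, had intronic counts in all 28 columns, with median shares over columns of 17.4%, 17.3% and 71.6%, and pooled shares of 21.2%, 17.5% and 30.9%. Map1b had column medians of 2.89%, 6.48% and 62.3% and pooled shares of 14.7%, 16.7% and 23.1%. Mapt had column medians of 16.6%, 9.76% and 3.89% and pooled shares of 21.3%, 16.7% and 0.670%. The pooled shares, which are the ones comparable with the all-gene medians, were above them for Map1b and Map2 in each run, and for Mapt in both BRP runs but not in the F run. Tuba1a had almost none, 127 intronic counts in all beside 2636053 exonic ones, of which BRP536 held 126. Stmn4 had 313 in all, and Stmn1 and Stmn2 had column medians below 1% in both BRP runs. The pooled share of Stmn1 in the upper run was nevertheless 7.47%, above the all-gene median of that run. Pooled shares were also above the all-gene median for Tubb3 and Stmn3 in the upper run, and for Tubb3, Dcx, Stmn2 and Stmn3 in the F run. In the lower run the pooled shares of all these genes lay below it.

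Several F columns had introns of a gene without its exons. Dcx had intronic counts in 7 of the 8 F columns and exonic counts in 2. F6 held 7505 intronic and 0 exonic counts of Dcx, a share of 100% (95% exact binomial interval 99.95% to 100%). F7 held 20195 intronic and 37 exonic counts of Stmn3, a share of 99.8% (99.7% to 99.9%), while F6 held 19 and 19671, a share of 0.0965%. F24 held 13049 intronic counts of Map2 and 2919 exonic ones, and F6 1972 and 6. For Dcx and Map2 in F6 and Stmn3 in F7, an exonic level near 0 thus stood beside many reads from the introns of the same gene. The intronic part of all counts was 5.31% to 63.0% per F column, 8.91% to 38.8% in the lower run and 5.67% to 13.0% in the upper, and its part in these shares was not tested.

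**Figure D3:**
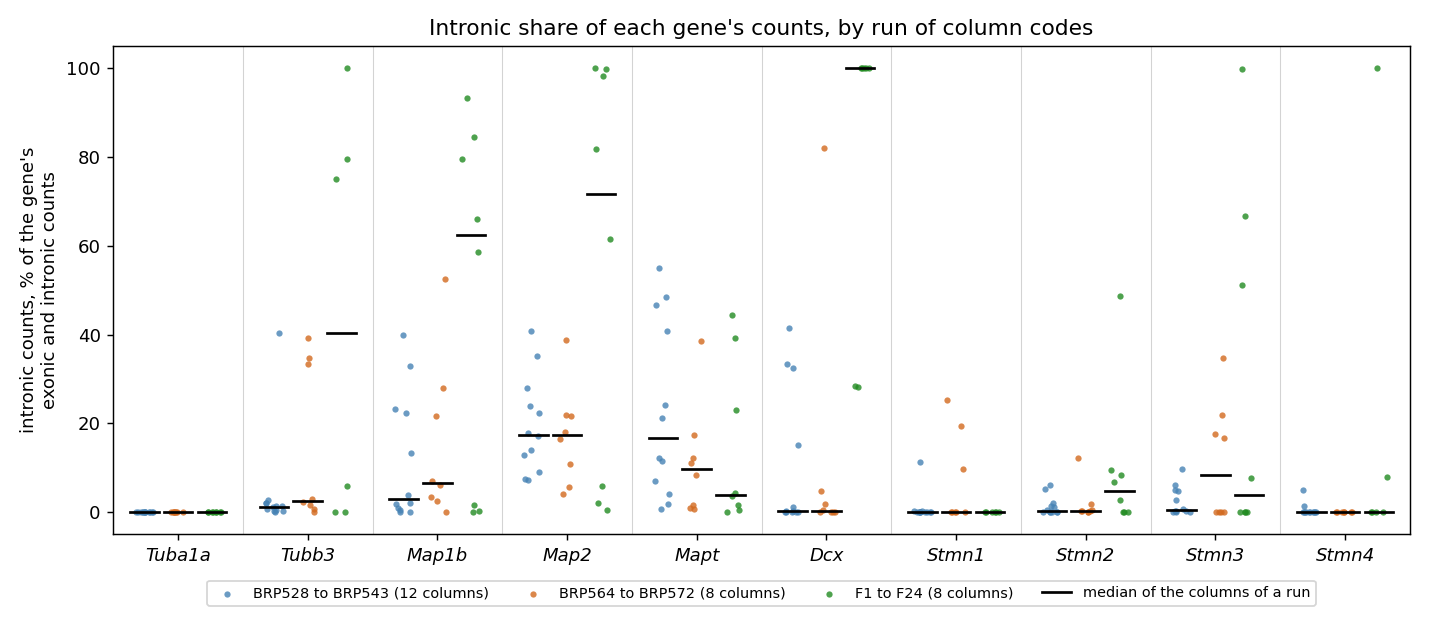
Intronic counts as a percent of the exonic and intronic counts of each gene, 1 point per column with any count of the gene, with black bars for run medians. Tuba1a lies at 0 in nearly every column, Map2 has introns throughout, and Dcx, Map1b and Map2 in the F run reach 100% or close to it.

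In the other lists of microtubule genes, counts without overlap between the BRP runs are to be read beside 3.21% of all genes higher in the lower run and 4.04% in the upper. Of 8 gamma-tubulin and gamma-ring genes, which nucleate microtubules, 0 separated the BRP runs, and Tubgcp5, Tubgcp3 and Tubgcp4, the most abundant, had medians of 18.0, 13.6 and 3.31 CPM in the lower run and 38.5, 37.3 and 15.1 in the upper. None of 13 plus- and minus-end proteins separated them either. Of these, Pafah1b1, which encodes the dynein regulator LIS1, had medians of 948 and 403, the minus-end binder gene Camsap2 185 and 52.2, and Mapre1, which encodes the end-binding protein EB1, 397 and 686. The 6 severing enzymes gave 0 as well, with Spast (spastin) at 64.5 and 49.6, Katnal1 at 44.3 and 26.6 and Fignl1 at 0.909 and 40.0. Among 12 listed genes of tubulin modification in the table, 1 separated, the deglutamylase gene Agtpbp1, at 138 to 577 in the lower run and 10.6 to 101 in the upper. The deacetylase gene Sirt2 had medians of 23.0 and 219, and the tyrosine ligase gene Ttl 59.4 and 62.1. Of 6 tubulin-folding genes, the beta-tubulin cofactor gene Tbca lay higher in every upper (808 to 1927) than in any lower column (236 to 751). Tbcb had medians of 92.1 and 211, and Tbce 65.2 and 70.8. Against the F run, Tubb4b, Tubg1 and Tbcc lay higher in every column of both BRP runs, Clip2, Camsap1 and Ttll11 in the lower run only, and Tuba1c, Tubb2b, Tubb6, Tubgcp3, Nedd1 and Fignl1 in the upper run only, beside 11% and 24.8% of all genes. Clip2 was near the floor, at 0.0448 CPM in its lowest lower column and a lower median of 0.173. It had no count in the F run, where every total was below those of the lower run.

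**Figure D4:**
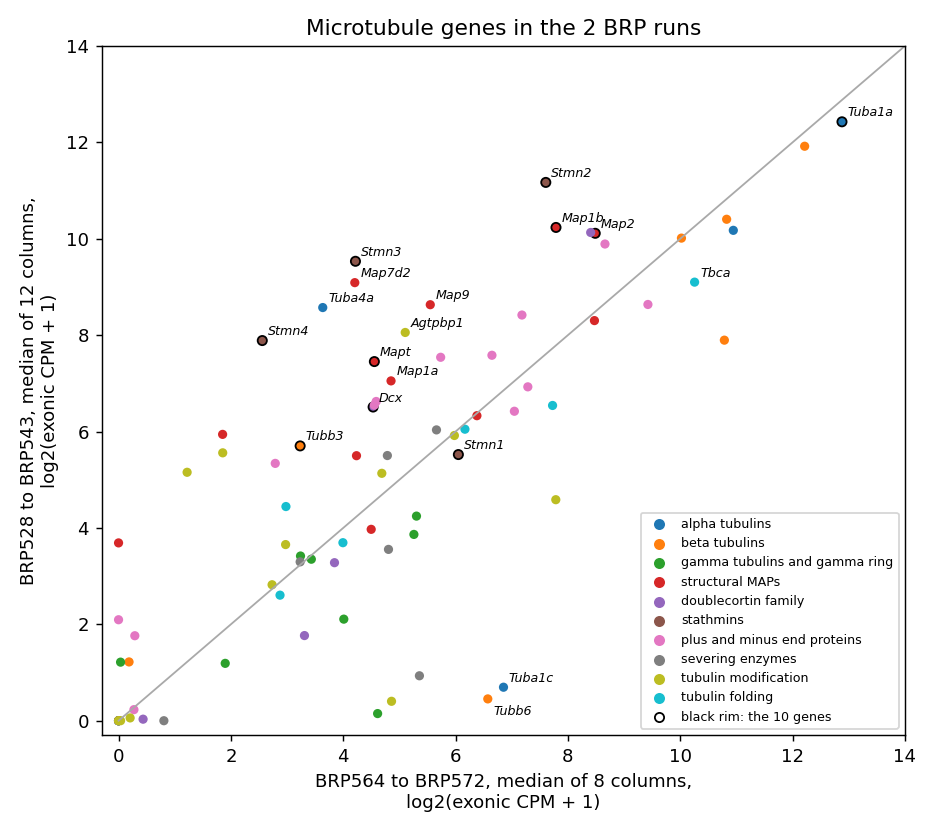
Median level of each listed microtubule gene in the upper BRP run (x axis, 8 columns) and the lower BRP run (y axis, 12 columns), both as log2(exonic CPM + 1), coloured by list, with black rims for the 10 genes and a grey line of equal level. Stmn2, Stmn3, Stmn4, Tuba4a, Map7d2 and Mapt lie well above the line, Tuba1a and Stmn1 close to it, and Tuba1c and Tubb6 far below.

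Levels of the 10 genes were set beside each other and beside 8572 genes with a mean of at least 10 CPM. Over all 28 columns the 45 pairs among the 10 genes had a median Spearman rho of 0.40 (-0.17 to 0.79), and the highest pairs were Stmn2 with Stmn4 (0.79), Map1b with Stmn2 (0.78) and Stmn3 with Stmn4 (0.78). Such values contain the difference between the runs. Within the lower BRP run alone the median was 0.13 (-0.53 to 0.68 over 12 columns), and the same pairs gave 0.37, 0.29 and 0.01. The highest pair there was Tuba1a with Stmn1 (0.68), both highest in BRP528 and BRP529. Oligodendrocyte markers summed to 749 and 1013 CPM in these columns and to 783 in BRP541, against at most 68.7 in the other lower columns. In the upper run they summed to 550 to 1308 CPM. The part of these markers in the pair was not tested. All columns share the scaling to their own total, and no p-value is given.

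The genes nearest to each member were taken by Spearman rho over the 28 columns. Stmn2 was nearest to Hsph1, a heat shock protein gene (rho 0.90), Map1b to Asphd1 (0.90), Tubb3 to Mapk8ip3, which encodes a kinesin cargo adaptor (0.89), and Stmn4 to Crtac1 (0.89). Map2 was nearest to Elavl3, an RNA-binding protein gene of neurons (0.81), Mapt to Trim2 (0.85) and Stmn3 to Prkar1b (0.84). Tuba1a was nearest to Slc25a39 (0.78), with Tbcd, a tubulin-folding cofactor gene, close behind (0.78), Dcx to Gpr85 (0.78) and Stmn1 to Ndrg2 (0.76). Next came Tbcd and Hadhb for Tuba1a, Aak1 and Ap3b2 for Tubb3, Ddn and Iqsec3 for Map1b, Elavl4 and Myt1l for Map2, and Ppp3r1 and Chl1 for Mapt. For Dcx these were Trappc5 and Prkar2b, for Stmn1 Gm13889, for Stmn2 6430548M08Rik and Pnmal2, for Stmn3 Svop and Jph3, and for Stmn4 Ccl27a and Grin2b. Within the lower BRP run alone all of these values were lower. There they ran from 0.01 for Map2 with Myt1l to 0.77 for Stmn2 with Pnmal2, and the gene nearest to Stmn3, Prkar1b, gave 0.22.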

How the data were processed

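RNA of 28 single mouse cells was sequenced. The authors deposited 2 tables of whole-number counts per gene and column, 1 for exons and 1 for introns, without normalization. The submitters' processing notes name bcl2fastq 2.17, STAR 2.4.0 and the mm10 build. The counting tool, annotation, strand setting and filters are not given in the sources used here. Column codes matched 0 samples, so the runs of codes were described without tests, means or replicate errors, and no p-values were computed. The members, lists and runs were chosen with earlier results of these data known.

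Exonic counts were scaled to CPM, counts per 1000000 of the column's exonic total, with a pseudocount of 1 on the log2 scale. Levels per kb used exon unions from GENCODE M21 (GRCm38), to which 92.9% of symbols of the exonic table matched uniquely. A gene was said not to overlap when every column of a run lay above every column of the other, with backgrounds over genes with a mean of at least 1 CPM. Genes named are the 10 members, in each pathway list the 3 with the highest mean level and any that did not overlap between 2 runs, the nearest genes by Spearman rho, and markers beside a result. A few family members, named as contrasts to a member, were singled out after their values were seen. No 2 columns differed by as little as sampling noise (lowest chi-square per degree of freedom 17.6 over 378 pairs). One of the nearest genes and one shared sequence are not reported here. The overlap and likeness calculations were checked in separate code on simulated counts of the BRP columns, without the F columns. Alternatives were TMM factors (edgeR 4.0.16) and DESeq2 1.42.0 size factors, totals without the 10 genes with most counts, added intronic counts, other filters, thinning, shares per kb, Pearson correlation and each column left out. Python 3.11.15 with pandas and R 4.3.3 were used.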

Additional observations from a re-analysis of the deposited data

Results flagged for a closer look

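A column was marked where its gap to the next column made up more of its run's range than Dixon's criterion allows, which was checked for 20 gene and run pairs of the 8-column runs and held for 8. Chance marks about 1 group in 20 where values are normal and independent, whereas these levels are skewed and share columns. The upper BRP run gave 2 of them, both BRP568: Tubb3 at 53.4 CPM, against 10.6 in the next column, and Dcx at 313, against 58.4. The F run gave 6. Tuba1a in F24 was 19223 CPM, against 5128 next. Dcx in F7 was 1633, against 185. In F1, Map1b was 2320, against 746, and Stmn2 3736, against 1407. In F6, Stmn3 was 1633, against 565, and Stmn4 1443, against 265. The lower BRP run, with 12 columns, was not checked in this way.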

How the results depend on the processing

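No paired analysis was possible because no column was matched to a sample. Of 10 genes, 5 separated the BRP runs, and 6 under each of the 4 other scalings, with Map2 added. With each column left out the number was 5 to 7. No member separated in the other direction or from the F run under any of these. The share of all genes without overlap, 3.21% for the lower run above the upper by column totals, also depends on the setting. Over other scalings and filters, and over the separations checked, that share counted as moved in 4 cases and as the same in 14. It was not computed with columns left out, so the counts of 5 to 7 have no background. The median of all genes, as log2 of the lower over the upper run, was -0.25 and moved to -0.11 with TMM factors and -0.02 with DESeq2 size factors. The log2 ratio for Tuba1a reversed to 0.021 with DESeq2 size factors. Summed levels moved by more than 1 SD of their columns. With DESeq2 size factors the 10 genes together gave 7786 in the lower run, 4087 in the upper and 16522 in the F run. Without Tuba1a they gave 3902 and 503 in the lower and upper. These size-factor values are scaled to a total common to all columns and are not CPM of the column, so only their ratios between runs can be read. TMM factors gave 5535 for all 10 in the upper run and 4506 without Tuba1a in the lower. Per kb of exon in place of counts, the stathmin shares moved to 42.5% for Stmn1 in the upper run, 33.9% and 34.1% for Stmn2 and 46.0% and 17.6% for Stmn3 in the lower and upper runs, and 16.3% for Stmn4 in the lower. The cause of these moves was not tested. Leaving out each column, the summed level without Tuba1a ranged from 6098 to 6161 in the lower run, 748 to 970 in the upper and 1496 to 2715 in the F run. The Tubb3 share of beta-tubulin counts in the F run ranged from 0.00116% to 0.621% and rests on single columns. Low totals and few genes in the F run limit what a count of 0 shows there.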
